A study of Mus musculus with 5 samples.

Results

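Elastic fibre and microfibril genes were examined in the bladder urothelium of mice that lost the gamma-secretase subunit Nicastrin and of wild-type mice. The 10 genes, chosen by name, were *Eln*, *Fbn1*, *Fbln1*, *Fbln2*, *Fbln5*, *Mfap4*, *Mfap5*, *Emilin1*, *Lox* and *Loxl1*, and all 10 were found among the 24970 genes counted. RNA was sequenced from 3 knockout mice (KO 1 to KO 3), labelled Krt5CreERT2;Ncstnflox/flox, and from 2 wild-type mice (WT 1 and WT 2), whose strain is given as C57Bl/6. All 5 animals were 10 weeks old, each gave 1 library, and the urothelium had been dissected off the muscle layer. In the knockouts an inducible Cre recombinase is driven by the promoter of *Krt5*, a keratin gene of basal epithelial cells. No strain is named for the knockouts beyond their genotype, no Cre is named for the wild types, and how the Cre was induced is not stated in the sources used here. Loss of Nicastrin therefore cannot be told apart from differences in background, Cre or its induction. Values of single libraries are listed in the order KO 1, KO 2, KO 3 and then WT 1, WT 2.

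Elastic fibres give tissues that stretch, such as the bladder wall, their recoil. Their core is cross-linked elastin, the product of *Eln*, which is laid down on a scaffold of microfibrils built from fibrillin, the product of *Fbn1*. Microfibril-associated proteins, fibulins and emilins link the core to the scaffold, and lysyl oxidases join elastin chains to each other. These genes are expressed mainly by fibroblasts and smooth muscle cells rather than by epithelial cells.

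Gene counts came to 12608836 to 27188499 per knockout library and to 13936790 and 19384171 in the wild types. Markers of urothelium were abundant (summed level of 10 genes, in CPM or counts scaled to a common library size, 16521 to 18350 CPM in KO and 11703 to 13176 CPM in WT libraries; 4 were higher in KO and none lower), and the dissected tissue also held connective tissue. The summed level of 13 fibroblast markers was 8887 to 10628 CPM in KO and 14998 to 16941 CPM in WT libraries, 10 of the 13 being lower and 1 higher in KO, and none was at 0. *Lum*, *Serpinf1*, *Pi16* and *Cd34* kept their call in all 15 alternatives tried. *Dcn* lost it without KO 1 (edgeR adjusted p = 0.102) or KO 2 (0.124), and *Pdgfrb* without KO 1 (0.0967) or KO 2 (0.0702). *Col3a1* lost it without KO 1 (0.0520), and *Clec3b*, the 1 called higher, without KO 2 (0.0601). Without WT 1 the log2 fold change was -0.70 for *Col1a1* and -0.55 for *Col3a1*, against -0.83 and -0.67 with all libraries. For 8 smooth muscle markers the sum was 298.7 to 446 CPM in KO and 326 to 453 CPM in WT libraries (1 of 8 lower), and for 8 endothelial markers 364 to 415 CPM in KO and 532 to 551 CPM in WT libraries (4 of 8 lower). For 4 pericyte markers it was 743 to 807 CPM in KO and 779 to 843 CPM in WT libraries (1 of 4 lower). Over all genes tested, 10.0% were called lower and 9.64% higher, so 1 of 8 lower is close to that share. Of 4 mesothelial markers, *Msln*, *Wt1* and *Lrrn4* had at most 6 counts in any library, and *Upk3b*, a uroplakin gene that urothelium also expresses, was at 460 to 514 CPM in KO and 344 to 367 CPM in WT libraries and was called higher (edgeR adjusted p = 0.0156). *Ncstn* was at 114, 117 and 123 CPM in the knockouts and at 144 and 130 CPM in the wild types, which does not check the deletion, since exons outside the floxed part and cells that never used *Krt5* are counted too. The precursor ribosomal RNA *Rn45s* took 0.608 to 1.53% of gene counts in KO and 3.23 and 7.84% in WT libraries. Its part in the results was not tested further than by leaving it out together with nuclear and mitochondrial RNA entries, after which the same 6 of the 10 genes were called.

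The promoters of called members for which a RefSeq window was at hand are shown first. None was at hand for *Mfap4*, *Mfap5* or *Lox*. The core TGGGAA, bound by RBPJ, the nuclear partner of the gamma-secretase substrate Notch, was searched as a description only. Each window runs from 250 bases before to 50 bases after the annotated start (GRCm38.p6), is written 5′ to 3′ on the strand of the gene, and has any TGGGAA or its reverse complement in capitals. The first window of *Fbln1* is chr15:85205699-85205998 (plus strand), the first of *Fbln5* chr12:101819070-101819369 (minus strand) and that of *Emilin1* chr5:30913536-30913835 (plus strand). The second windows of *Fbln1* and *Fbln5* held no TGGGAA on either strand and are not printed.
Fbln1: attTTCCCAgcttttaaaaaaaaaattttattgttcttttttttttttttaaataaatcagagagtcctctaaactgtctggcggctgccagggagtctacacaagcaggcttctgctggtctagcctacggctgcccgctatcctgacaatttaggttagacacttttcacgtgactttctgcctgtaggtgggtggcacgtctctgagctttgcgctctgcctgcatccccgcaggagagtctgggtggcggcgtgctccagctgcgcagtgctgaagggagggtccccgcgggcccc
Fbln5: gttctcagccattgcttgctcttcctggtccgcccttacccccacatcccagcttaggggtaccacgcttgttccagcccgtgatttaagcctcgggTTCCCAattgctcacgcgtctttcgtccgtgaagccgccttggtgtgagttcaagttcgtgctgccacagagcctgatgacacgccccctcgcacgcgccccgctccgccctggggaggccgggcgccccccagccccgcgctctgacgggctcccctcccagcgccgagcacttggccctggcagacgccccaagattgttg
Emilin1: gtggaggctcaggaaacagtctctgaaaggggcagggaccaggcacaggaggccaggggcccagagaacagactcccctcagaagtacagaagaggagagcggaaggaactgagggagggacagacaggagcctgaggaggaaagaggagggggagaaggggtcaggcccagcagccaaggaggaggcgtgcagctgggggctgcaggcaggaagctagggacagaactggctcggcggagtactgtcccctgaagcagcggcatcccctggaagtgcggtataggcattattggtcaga
The core was present in 3 of 7 windows of 5 members (*Fbn1* and the first of the 2 windows each of *Fbln1* and *Fbln5*), against 25.6% of all 32851 windows of this length. The 2 windows of *Fbln1* share most of their bases. Neither TATAAA, held by 13.6% of all windows, nor GTCTAGAC (0.213%), TGAGTCA (5.2%) or GGAATG (14.7%) occurred in the 7, on either strand. A match is a description of these letters and not a binding site.

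Of the 10 genes, 6 were lower in the knockouts, none was higher and 4 did not pass the test. The genes that fell were *Mfap4*, *Mfap5*, *Lox*, *Emilin1*, *Fbln1* and *Fbln5*, and those that did not pass were *Eln*, *Fbn1*, *Fbln2* and *Loxl1*. The fitted fold change was below 0 in all 10, with a median of -0.47 on the log2 scale, against 0.0071 over all 14779 genes tested and -0.67 over the 13 fibroblast markers. Calls were made with edgeR (quasi-likelihood F test, p adjusted over all genes after Benjamini and Hochberg, threshold 0.05), which found 10.0% of all genes lower and 9.64% higher. The libraries of the 2 genotypes did not overlap, with KO below WT, for the same 6 members and for 25.1% of all genes, and KO lay above WT for no member and for 25.9% of all genes. Without WT 1, the members that fell numbered 3 (*Mfap4*, *Mfap5* and *Lox*) and the share of all genes called lower was 2.51%, and without KO 1 they numbered 4, with 6.27% of all genes. Without WT 2, 5 members fell, with 4.87% of all genes. A lower level in such bulk tissue can mean fewer cells of the kind that expresses the gene or less RNA per cell, and the data cannot tell these apart.

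**Figure D1:**
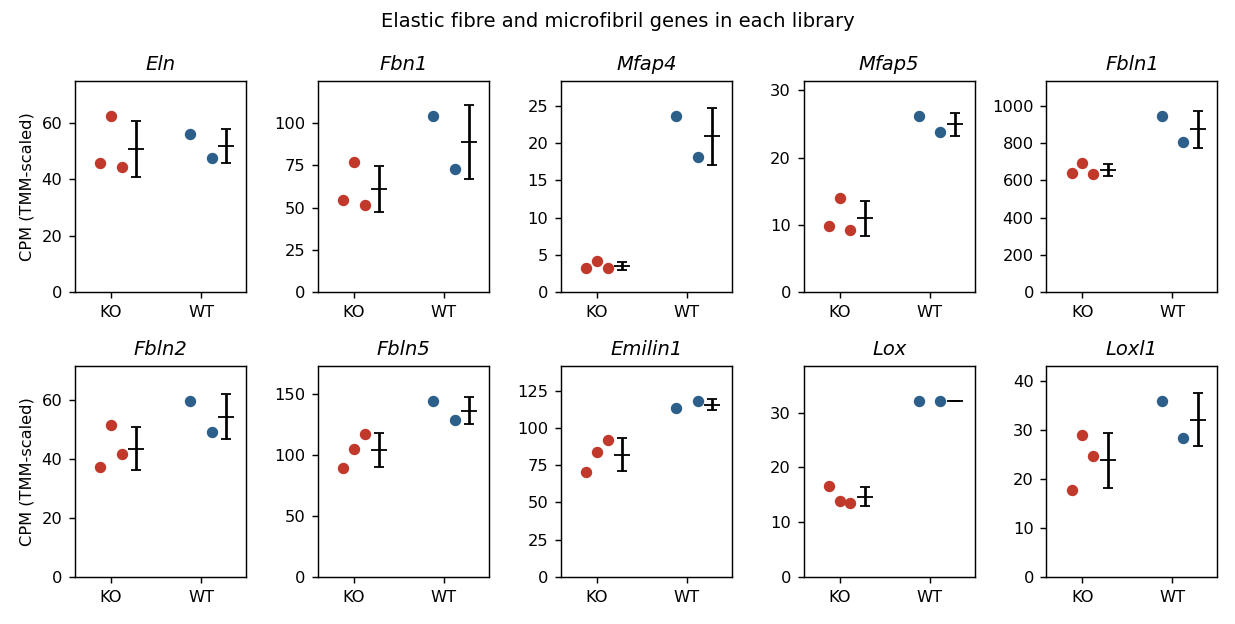
Level of each of the 10 genes in CPM (TMM-scaled, vertical axes from 0) in 3 KO (left, red) and 2 WT (right, blue) libraries, each point 1 mouse, with the mean and SD of each genotype as a black bar. Mfap4, Mfap5 and Lox lay far below both WT libraries in every KO library, whereas Eln overlapped.

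Elastin itself did not pass the test. *Eln* (chromosome 5, 134702593 to 134747323, GRCm38) was at 45.8, 62.4 and 44.5 CPM in the knockouts and at 56.3 and 47.7 CPM in the wild types. The highest and the lowest library were both knockouts, so the genotypes overlapped. The mean was 50.9 ± 10.0 CPM in KO (SD, n = 3) and 52.0 ± 6.05 CPM in WT libraries (SD, n = 2), and the log2 fold change was -0.034 (95% interval -0.37 to 0.30, edgeR adjusted p = 0.897). This interval holds changes of up to about 1.3-fold in either direction, so equal levels are not shown. Smooth muscle, another source of elastin, had overlapping marker sums in the 2 genotypes. Its 8 single markers moved both ways, from -0.63 for *Tagln* to 1.33 for *Cnn1* on the log2 scale, and only *Smtn* (-0.33) passed. *Smtn* was lost without KO 1 (edgeR adjusted p = 0.0996) or KO 2 (0.0633). *Acta2* and *Cnn1* passed as higher in DESeq2 (adjusted p = 0.0285 and 0.0434). With *Actg2* they also did so with no filter on low counts, with a block for the replicate number and without KO 3. *Tagln* passed as lower with no filter on low counts, and *Myh11* without KO 2. The part of smooth muscle in the level of *Eln* was not tested.

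Fibrillin-1 is the backbone of microfibrils, and its gene did not pass the test. *Fbn1* (chromosome 2, 125300594 to 125507993) was at 54.4, 76.7 and 51.6 CPM in the knockouts and at 104 and 73.0 CPM in the wild types. KO 2 lay above WT 2, and the log2 fold change of -0.54 ± 0.18 (SE) did not pass (edgeR adjusted p = 0.0634). The call changed with single libraries: *Fbn1* passed without KO 2 (log2 fold change -0.75, edgeR adjusted p = 0.0146) and without WT 2 (-0.79, adjusted p = 0.0495), and had -0.27 (adjusted p = 0.516) without WT 1. It also passed in DESeq2 (adjusted p = 0.0276), with upper-quartile factors (edgeR adjusted p = 0.0485), with library totals alone (0.0456), with no filter on low counts (0.00048) and with a block for the replicate number (0.00193). No wild type shares the number of KO 3, so the block compares the genotypes on KO 1, KO 2, WT 1 and WT 2 alone. With this block 16.4% of all genes were called lower, against 10.0% without it.

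*Mfap4* showed the largest difference among the 10. It encodes a microfibril-associated glycoprotein that binds elastin and fibrillin, and lies on chromosome 11 from 61485431 to 61488900. It had 86, 69 and 41 counts, or 3.24, 4.15 and 3.19 CPM, in the knockouts, against 452 and 261 counts, or 23.6 and 18.2 CPM, in the wild types. Every knockout library was below both wild types, by more than 4 times. *Mfap4* fell 5.95-fold (log2 fold change -2.57 ± 0.18, SE; edgeR adjusted p = 2.98e-05), and 65 of the 14779 genes tested had a lower log2 fold change. Its last 89 bases overlap *Mapk7* on the opposite strand, and the sources used here do not say whether counting used strand. *Mapk7* was at 31.0 ± 1.85 CPM in KO (SD, n = 3) and 30.6 ± 0.450 CPM in WT libraries (SD, n = 2; edgeR adjusted p = 0.903).

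*Mfap5*, whose product binds fibrillins on the microfibril surface, changed in the same direction. It was at 9.86, 14.0 and 9.19 CPM in the knockouts and at 26.2 and 23.8 CPM in the wild types, with no overlap. *Mfap5* fell 2.27-fold (log2 fold change -1.18 ± 0.18, SE; edgeR adjusted p = 0.00181). The ratio of *Mfap4* to *Mfap5* counts was 0.328, 0.296 and 0.347 in the knockouts and 0.902 and 0.765 in the wild types, so the 2 genes did not fall in proportion. In an exact two-sided permutation test of this ratio p was 0.2, the smallest that 3 against 2 libraries allow (adjusted p = 0.325 over 13 ratios between members).

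Lysyl oxidase, the copper enzyme that starts the cross-linking of elastin and collagen, was the third gene with a change over 2-fold. *Lox* was at 16.6, 13.8 and 13.5 CPM in the knockouts and at 32.1 CPM in both wild types. It fell 2.18-fold (log2 fold change -1.12 ± 0.13, SE; edgeR adjusted p = 0.000439). A fall of more than 2-fold past the test was seen in 3 of the 10 members and in 4.07% of all genes. These 3 genes kept their call in all 15 alternatives tried, leaving out any library included, with log2 fold changes of -2.76 to -2.37 for *Mfap4*, -1.40 to -1.09 for *Mfap5* and -1.23 to -1.08 for *Lox*.

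*Loxl1* encodes a related oxidase that is needed to renew elastic fibres in mice. It was at 17.8, 29.0 and 24.7 CPM in the knockouts and at 35.9 and 28.3 CPM in the wild types, and KO 2 lay above WT 2. Its log2 fold change of -0.44 ± 0.19 (SE) did not pass (edgeR adjusted p = 0.125), although it did with no filter on low counts (edgeR adjusted p = 0.0163) and with a block for the replicate number (0.00244). The ratio of *Lox* to *Loxl1* counts overlapped between genotypes, at 0.932, 0.477 and 0.549 in the knockouts and 0.892 and 1.14 in the wild types.

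Fibulins are glycoproteins that tie elastin to microfibrils and to basement membranes. *Fbln1* was at 639, 693 and 636 CPM in the knockouts and at 944 and 803 CPM in the wild types, and fell 1.33-fold (log2 fold change -0.41 ± 0.11, SE; edgeR adjusted p = 0.0303). *Fbln5*, whose product brings *Loxl1* protein and elastin together, was at 89.2, 105 and 117 CPM in the knockouts and at 144 and 128 CPM in the wild types, and fell 1.32-fold (log2 fold change -0.40 ± 0.12, SE; edgeR adjusted p = 0.0428). *Fbln2* was at 37.3, 51.6 and 41.6 CPM in the knockouts and at 59.8 and 49.1 CPM in the wild types, overlapped between genotypes and did not pass (edgeR adjusted p = 0.137, log2 fold change -0.33 ± 0.14, SE). The proportions of the 3 fibulin genes overlapped between genotypes and varied most among the knockouts: *Fbln5* to *Fbln1* counts stood at 0.140, 0.151 and 0.183 in the knockouts and at 0.153 and 0.160 in the wild types, and *Fbln2* to *Fbln1* at 0.0585, 0.0745 and 0.0653 in KO and 0.0633 and 0.0612 in WT libraries.

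The calls of these smaller changes depended on single libraries. *Fbln1* did not pass without KO 1 (edgeR adjusted p = 0.0979), KO 2 (0.0636) or WT 1 (0.202). *Fbln5* did not pass without KO 1 (0.130), KO 2 (0.0898), WT 1 (0.271) or WT 2 (0.0768), and *Fbln2* passed without KO 2 (edgeR adjusted p = 0.0422), with no filter on low counts (0.0490) and with a block for the replicate number (0.0372). *Emilin1*, which encodes a glycoprotein at the border of elastin and microfibrils, was at 70.3, 84.1 and 91.9 CPM in the knockouts and at 113 and 118 CPM in the wild types. It fell 1.41-fold (log2 fold change -0.50 ± 0.12, SE; edgeR adjusted p = 0.0155) with no overlap, and lost its call without WT 1 (edgeR adjusted p = 0.0854) or WT 2 (0.0821).

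**Figure D2:**
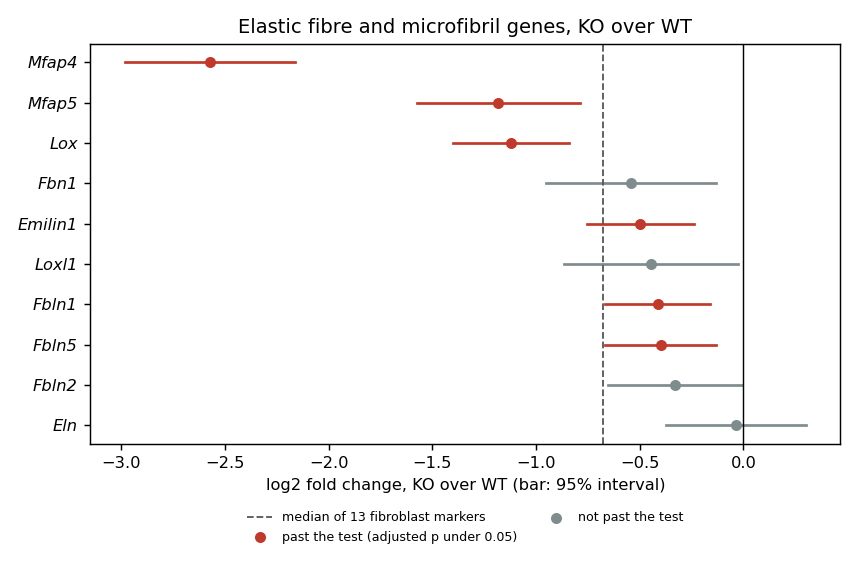
Log2 fold change of each gene, KO over WT (horizontal axis), as a point with its 95% interval, red where the edgeR adjusted p was under 0.05 and grey otherwise, with the median of 13 fibroblast markers (-0.67) as a dashed line. The single markers spread from -1.59 to 0.86, a range that holds every member but Mfap4.

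Levels per kilobase of exon, which allow genes to be set beside each other, were led by *Fbln1* in both genotypes, at 150 ± 7.31 CPM per kilobase in KO (SD, n = 3) and 200.0 ± 22.8 in WT libraries (SD, n = 2). *Emilin1* and *Fbln5* followed in both, at 16.6 ± 2.21 and 14.99 ± 1.99 CPM per kilobase in KO, where their ranges overlapped, and at 23.4 ± 0.701 and 19.7 ± 1.61 in WT libraries, where they did not. *Mfap4* had the lowest level of the 10 in KO (1.83 ± 0.281 CPM per kilobase), below *Lox* (3.07 ± 0.353) without overlap, and ranked above 6 others in WT libraries (10.9 ± 1.99). *Eln* ranked in the middle in KO (6.28 ± 1.24 CPM per kilobase) and last in WT libraries (6.42 ± 0.747). In the knockouts the neighbours from *Loxl1* through *Fbln2* and *Eln* to *Fbn1* overlapped, as did *Mfap5* and *Lox*, and in the wild types every neighbour from *Mfap4* down to *Eln* did. *Fbln1* alone gave 61.1 to 65.0% of the counts of the 10 genes in KO and 60.8 and 61.3% in WT libraries, and *Mfap4* 0.309 to 0.366% in KO and 1.38 and 1.53% in WT libraries.

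Because fibroblast markers were lower in the same knockout libraries, each member was also set against the summed counts of the 13 fibroblast markers of its own library. *Eln* came to 0.515, 0.598 and 0.418% of that sum in the knockouts and to 0.332 and 0.318% in the wild types, a difference of 0.64 on the log2 scale with every knockout above both wild types. *Mfap4* came to 0.0364, 0.0398 and 0.03% in the knockouts and to 0.139 and 0.121% in the wild types, a difference of -1.89. *Mfap5* (-0.52) and *Lox* (-0.46) were also below both wild types in every knockout by this ratio. For *Lox* the nearest libraries almost met, at 0.187% in KO 1 and 0.189% in WT 1. By contrast *Fbln1* (0.27), *Fbln2* (0.35), *Fbln5* (0.28) and *Emilin1* (0.18) were above both wild types in every knockout, and *Fbn1* (0.14) and *Loxl1* (0.23) overlapped. For *Emilin1* the nearest libraries also almost met, at 0.791% in KO 1 and 0.787% in WT 2.

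The exact two-sided permutation p was 0.2 for each of the 8 members whose genotypes did not overlap, the smallest these libraries allow (adjusted p = 0.25 over 10 members), so none of these ratios can pass a threshold of 0.05. For levels of single genes, 25.1% of all genes did not overlap with KO below WT and 25.9% with KO above. Collagens make up most of the summed counts. With the collagen genes left out of the sum, the log2 difference was 0.42 for *Eln*, -2.10 for *Mfap4*, -0.74 for *Mfap5* and -0.67 for *Lox*, but 0.056 for *Fbln1*, 0.065 for *Fbln5* and -0.037 for *Emilin1*. Most of that smaller sum was *Dcn*. With the 13 markers at equal weight, the difference was 0.49 for *Eln*, -1.99 for *Mfap4*, -0.66 for *Mfap5* and -0.60 for *Lox*. For *Fbln1*, *Fbln5*, *Emilin1* and *Fbn1* it was then 0.12, 0.13, 0.033 and -0.0039. The signs of *Emilin1* and of *Fbn1* (-0.074 without collagen genes) thus turned with the sum used. The 13 markers also differed among themselves, with log2 fold changes of CPM from -1.59 for *Lum* to 0.86 for *Thy1*. *Lum* and *Serpinf1* (-1.21) had lower log2 fold changes than *Mfap5* and *Lox*, while *Clec3b* (0.67), *Thy1* and *Dpt* (0.33) had higher ones than *Eln*. Of the 10 members, *Mfap4* alone lay outside the range of the single markers.

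**Figure D3:**
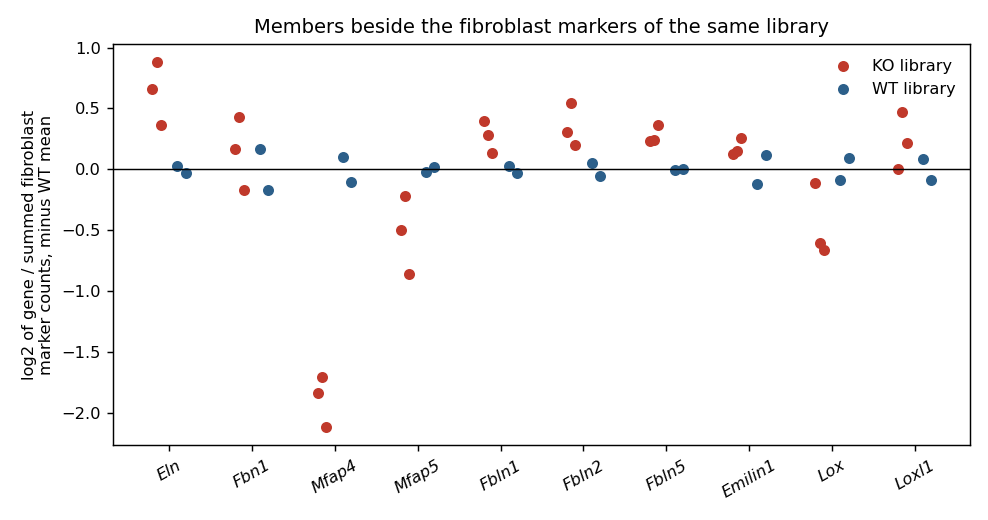
Ratio of each gene to the summed counts of 13 fibroblast markers of the same library, as log2 minus the WT mean (vertical axis), for 3 KO (red, left) and 2 WT (blue, right) libraries per gene. Eln lay above and Mfap4, Mfap5 and Lox below both WT libraries in every KO library, although Lox in KO 1 lay close to WT 1.

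Against *Eln* itself, *Mfap4* counts stood at 0.0707, 0.0665 and 0.0718 per *Eln* count in the knockouts and at 0.419 and 0.381 in the wild types. For *Lox* the ratio to *Eln* was 0.363, 0.222 and 0.305 in the knockouts and 0.57 and 0.673 in the wild types. *Fbn1* to *Eln* was 1.19, 1.23 and 1.16 in the knockouts and 1.85 and 1.53 in the wild types, without overlap although *Fbn1* alone overlapped. Of the 9 ratios to *Eln*, 7 did not overlap and those of *Fbln5* and *Emilin1* did. All 9 share the same denominator, so they are not separate observations. For each of the 7 the exact two-sided permutation p was 0.2 (adjusted p = 0.325 over 13 ratios). Such separation is common with these libraries: levels of single genes did not overlap, with KO below WT, for 25.1% of all genes.

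Other genes of the same assembly pathway came from a list of 30, of which 29 were counted and 25 tested. In the knockouts 10 of the 25 fell, 2 rose and 13 did not pass, with a median log2 fold change of -0.28. The background over all genes was 10.0% lower and 9.64% higher. Fibronectin, on which cells assemble fibrillin microfibrils, was among those that fell: *Fn1* was at 150, 175 and 201 CPM in the knockouts and at 420 and 330.1 CPM in the wild types, a fall of 2.15-fold (edgeR adjusted p = 0.000841). *Adamts10*, which encodes a fibrillin-binding member of the ADAMTS protease family, was at 26.2, 28.1 and 36.8 CPM in the knockouts and at 65.7 and 61.5 CPM in the wild types and fell 2.11-fold (edgeR adjusted p = 0.000877). Of the other lysyl oxidases, *Loxl2* fell 1.58-fold (edgeR adjusted p = 0.00396), *Loxl3* fell 1.52-fold (edgeR adjusted p = 0.0372) and *Loxl4* did not pass (edgeR adjusted p = 0.239, log2 fold change -0.36). *Bmp1*, whose protease product activates lysyl oxidase, fell 1.49-fold (edgeR adjusted p = 0.00702). The matricellular gene *Postn* fell 1.82-fold (edgeR adjusted p = 0.0199) and *Hmcn1*, which encodes the large fibulin relative hemicentin, 3.40-fold (0.0112). *Hmcn1* had few counts, 44, 12 and 21 in the knockouts and 113 and 46 in the wild types. *Mmrn2*, an endothelial gene of the emilin family, *Thsd4*, which encodes a promoter of fibrillin assembly, and *Adamtsl5* fell by 0.50, 0.45 and 0.34 on the log2 scale.

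A relative of *Emilin1* moved the other way. *Emilin2* was at 22.6, 31.8 and 24.4 CPM in the knockouts and at 10.6 and 8.22 CPM in the wild types, and rose 2.77-fold (log2 fold change 1.47 ± 0.18, SE; edgeR adjusted p = 0.000746). *Adamtsl4*, whose product binds fibrillin, rose 1.58-fold (edgeR adjusted p = 0.00624). Several genes central to assembly did not pass. *Mfap2*, a close relative of *Mfap5*, averaged 12.6 ± 0.0553 CPM in KO (SD, n = 3) and 15.2 ± 0.126 CPM in WT libraries (SD, n = 2; edgeR adjusted p = 0.157). *Efemp2*, the fibulin gene needed for elastic fibres to form in mice, averaged 40.0 ± 4.32 and 42.2 ± 2.35 CPM in KO and WT libraries (edgeR adjusted p = 0.685), and *Ltbp4*, which encodes a latent TGF-beta binding protein of elastic fibres, 525 ± 87.1 and 574 ± 53.5 CPM (edgeR adjusted p = 0.557). *Fbn2* had at most 2 counts in any library and was not tested.

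In the pathway list *Fn1*, *Adamts10*, *Loxl2* and *Emilin2* passed without any 1 library. Without KO 1, 6 of the genes fell, with 6.27% of all genes, without KO 2, 7, with 7.46%, and without KO 3, 10, with 15.2%. Fewer fell with either wild type left out, which leaves 1 library in that group. Fewer of all genes were then called lower as well. *Loxl3*, *Thsd4* and *Adamtsl5* did not pass without any of KO 1, KO 2, WT 1 and WT 2 (edgeR adjusted p = 0.0680 to 0.250), nor *Mmrn2* without KO 1 (0.0881), WT 1 (0.113) or WT 2 (0.147). *Hmcn1* (0.206) and *Bmp1* (0.0814) were lost without WT 1, *Postn* without WT 1 (0.170) or WT 2 (0.0748) and in a robust fit (0.0540), and *Adamtsl4* without WT 2 (0.0664).

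**Figure D4:**
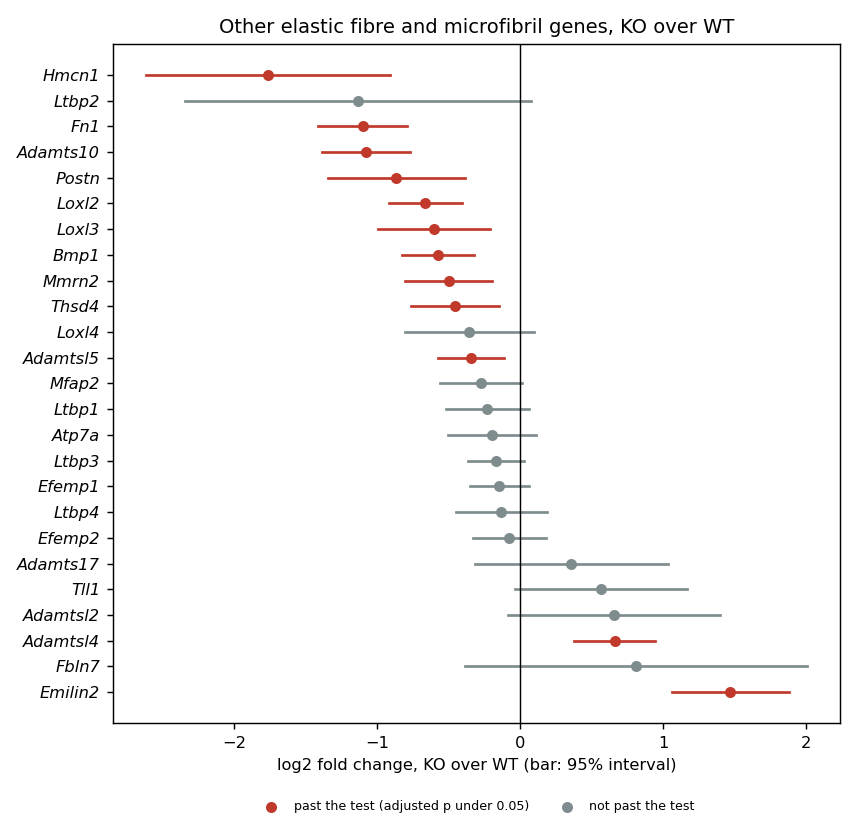
Log2 fold change, KO over WT (horizontal axis), of the 25 other elastic fibre and microfibril genes tested, as points with 95% intervals, red where the edgeR adjusted p was under 0.05. Emilin2 and Adamtsl4 were higher and 10 genes, among them Fn1 and Adamts10, were lower in KO.

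Microfibrils store TGF-beta, a growth factor family that in turn raises matrix synthesis. Of 6 such ligands and receptors, *Tgfb3* fell 1.59-fold, with 13.5, 16.0 and 15.4 CPM in the knockouts and 23.5 and 24.1 CPM in the wild types (edgeR adjusted p = 0.00574). *Tgfb2* rose 1.60-fold, with 13.5, 16.7 and 13.7 CPM in the knockouts and 9.77 and 8.43 CPM in the wild types (edgeR adjusted p = 0.0166). *Tgfb1* and the 3 receptor genes did not pass, and over all genes 10.0% were lower and 9.64% higher. *Tgfb3* was lost without WT 1 (edgeR adjusted p = 0.0545) and *Tgfb2* without KO 2 (0.0573), WT 1 (0.0803) or WT 2 (0.112).

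Among 8 tested proteases that can cleave elastin or its scaffold, *Ctsk* and *Mmp12* fell, *Mmp7* rose and 5 did not pass, against 10.0% of all genes lower and 9.64% higher. *Ctsk*, the cathepsin K gene, was at 61.8, 72.9 and 89.0 CPM in the knockouts and at 97.5 and 113 CPM in the wild types (edgeR adjusted p = 0.0340), and its call was lost without KO 1, KO 2, WT 1 or WT 2 (edgeR adjusted p = 0.0819 to 0.184). *Mmp12*, the macrophage elastase gene, was at 0.151, 0.0601 and 0.779 CPM in the knockouts and at 1.62 and 1.18 CPM in the wild types (edgeR adjusted p = 0.0388), and was lost without KO 1, KO 2, WT 1 or WT 2 (0.0751 to 0.292) and in DESeq2 (0.0564). None of 4 macrophage markers passed (sum 53.4 to 93.0 CPM in KO and 72.8 to 83.0 CPM in WT libraries). One of them, *Adgre1*, was below both wild types in every knockout (log2 fold change -0.68, edgeR adjusted p = 0.0739) and passed with no filter on low counts (0.00696), with the replicate block (8.5e-05), without KO 3 (0.0135) and in limma-voom (adjusted p = 0.0417). The part of macrophages in the level of *Mmp12* was not tested. The matrilysin gene *Mmp7* had 24, 52 and 8 counts in the knockouts against 0 and 1 in the wild types, a ratio of 50.2 (95% interval 8.77 to 2006, counting error only). It was called higher (edgeR adjusted p = 0.0140). Its call was lost without WT 1 (log2 fold change 4.34) or WT 2 (7.86). Of the runs that left out 1 library, *Mmp7* could be tested in 4 and was called in 2.

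Of 11 genes of the elastin receptor complex and of integrins that bind matrix or latent TGF-beta, 2 rose, 1 fell and 8 did not pass. Over all genes 9.64% were higher and 10.0% lower, and 1 of 11 lower is close to that share. *Neu1*, the sialidase of the elastin receptor complex and of lysosomes, was at 104, 103 and 100.3 CPM in the knockouts and at 58.4 and 63.3 CPM in the wild types, and rose 1.69-fold (edgeR adjusted p = 0.000649), a call that held without any 1 library. The epithelial integrin gene *Itgb6* rose 1.56-fold (edgeR adjusted p = 0.0340) and *Itgb8* fell 6.17-fold, with 0.339, 0.120 and 0.389 CPM in the knockouts and 2.14 and 1.39 CPM in the wild types (edgeR adjusted p = 0.00511). *Itgb6* was lost without KO 1, KO 2, WT 1 or WT 2 (edgeR adjusted p = 0.0953 to 0.176), with a filter at a mean of 5 CPM (0.0501) and in a robust fit (0.0508), and *Itgb8* without WT 1 (0.117).

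The mean profile of the 10 genes over the 5 libraries, as log2 CPM centred on each gene, was -0.44, -0.11 and -0.35 in the knockouts and 0.56 and 0.34 in the wild types. The 5 genes nearest to this profile by Euclidean distance were *Arhgap11a* (0.0598), *Palm* (0.0739), *Nr3c1* (0.0879), *Pygm* (0.130) and *Dse* (0.135). Their lower level in KO was fixed by this choice, since the profile itself is lower in KO. Distances of the members to their own mean ran from 0.386 for *Fbn1* to 1.95 for *Mfap4*, so the mean hides how unlike the 10 genes were.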

How the data were processed

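Per the labels' protocols, urothelium was frozen and pulverised, TRI-Reagent was used for total RNA and an Illumina TruSeq kit for the libraries. The build was mm10 and the tools named are DESeq2, HTSeq 0.11.1 and HISAT2 2.1.0, per the submitters' processing notes. The deposited values used here were raw counts per gene from the authors, and the sources used here do not state the annotation or strand setting behind them. The 5 summary entries of the counting program stayed out of library sizes and all tests (genes held 49.3 to 60.6% of all tallied reads).

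The edgeR function filterByExpr (minimum count 10, minimum total 15) kept 14779 genes, all 10 members included. Libraries were scaled with TMM (factors 0.978 to 1.03), and KO was compared with WT by edgeR's quasi-likelihood F test, with p adjusted after Benjamini and Hochberg over all genes tested. The SE was taken from the fold change and its F value. Versions were edgeR 4.0.16, DESeq2 1.42.0 and limma 3.58.1 in R 4.3.3, and the procedure was tested on simulated data. Chi-square per degree of freedom was 7.76 to 15.9 between KO libraries and 30.4 between WT 1 and WT 2, where counting error alone gives about 1. The design text speaks of separate mice, and p-values measure the spread between these libraries. Exon lengths and positions are from GENCODE vM21 (GRCm38), matched by symbol, and need not be those used in counting.

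The 10 genes, the other lists and the rule for named genes were chosen with earlier results of these data known. Named were all 10 members, the members of the pathway lists that passed the test together with *Fbn2*, *Mfap2*, *Efemp2*, *Ltbp4* and *Fn1*, markers, and the 5 genes nearest to the mean profile (prior count 2). *Loxl4*, *Tgfb1* and *Mapk7* were added after their values were seen. The hemicentin gene *Hmcn2* is not analysed here. Alternatives were other scaling factors, filters on low counts, a robust fit, DESeq2, limma-voom, a replicate block, leaving out ribosomal, nuclear and mitochondrial RNA entries, and leaving out each library.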

Additional observations from a re-analysis of the deposited data

How the results depend on the processing

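All 15 alternatives kept the direction of 9 of the 10 members, the exception being *Eln*, which passed in none. Its log2 fold change ranged from -0.22 to 0.087 with 1 library left out and was 0.037 with a replicate block, and the cause was not tested. Leaving out 1 library gave 3 to 6 members lower, 375 to 2246 of all genes lower and 340 to 1743 higher, and 3 to 10 of the listed pathway genes lower and 1 to 2 higher. Of 150 values of a member under an alternative, 125 kept direction and side of the threshold, 9 lost the call, all with a library left out and so with fewer samples, and 12 gained it. The largest shift of the median of all genes with another scaling was -0.042 on the log2 scale, with upper-quartile factors. The replicate numbers give no pairing beyond a shared number (correlation of deviations -0.06 for libraries numbered 1 and 0.05 for those numbered 2). A block for the number called 2426 genes lower and 2211 higher, against 1483 and 1424 without it, and 9 members lower, all but *Eln*. As no wild type shares the number of KO 3, this block compares the genotypes without that library. Depth does not limit the 10 genes, the lowest count being 41, whereas *Fbn2* could not be assessed.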
